A study of Homo sapiens with 2 samples.

Results

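The genes described here encode glycosyltransferases and carbohydrate sulfotransferases, the enzymes that build and modify the sugar chains of glycoproteins, glycolipids and proteoglycans. They were taken by symbol: every gene whose name begins with GALNT, B3GALT, B3GNT, B4GALT, A4GALT, ST3GAL, ST6GAL, ST8SIA, MGAT, CHST, HS3ST, HS6ST or EXTL, or with FUT and a digit, and that was measured by a probe set with a single gene symbol. This gave 95 of the 14232 named genes, from 97 probe sets. Of the 95, 94 encode proteins and 1, B3GALT5-AS1, is an antisense RNA of B3GALT5, so that part of the rule reached past the enzymes. A further 14 protein-coding genes with such names, among them FUT2, FUT7, GALNT10, HS6ST1 and CHST15, had no probe set of their own and were not analysed here.

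The samples were J82 cells, an established human bladder cancer line grown in medium with serum, with no treatment given in the labels. The side population (SP) holds the cells that Hoechst staining and flow sorting set apart because they keep little of this DNA dye. It was set against the non-side population (NSP), the other sorted cells. Each population was measured on 1 whole-transcript exon array, so no value below has an error between samples and no test between the populations was possible. The sort gates and any check with a transporter inhibitor are not stated in the sources used here, and both populations come from a single cell line.

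Sugar chains are assembled in the endoplasmic reticulum and the Golgi apparatus by enzymes that act one after another, each using a nucleotide sugar as donor. Mucin-type O-glycans start when a GALNT enzyme attaches N-acetylgalactosamine to serine or threonine. N-glycans are branched by the MGAT enzymes, and glycolipids grow outward from glucosylceramide. Galactosyltransferases and N-acetylglucosaminyltransferases lengthen the chains, and sialyltransferases and fucosyltransferases cap them. Sulfotransferases modify chondroitin, keratan and heparan sulfate. In urothelium and its tumours, cell surface glycans carry blood group and sialylated antigens.

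Values are log2 array signals. A gene was counted as above the floor when at least 1 of its SP and NSP values was 7.44 or more, the median over both arrays. The probe set values of SP ran from 2.15 to 13.99 and those of NSP from 2.11 to 13.93, with medians of 7.43 in SP and 7.44 in NSP. Among the 7549 genes above the floor the median difference, SP minus NSP, was -0.05, and 59.6% of them had the lower value in SP. Below the floor the balance was the other way, with a median of 0.05 and 59.6% of 6683 genes higher in SP. The keratin genes KRT7, KRT8, KRT18 and KRT19 were above the floor, as were all 5 mesenchymal marker genes, while the epithelial and urothelial marker genes EPCAM, CDH1, UPK1B, UPK2, UPK3A and GATA3 were below it. Over the 10 epithelial and urothelial markers, keratins included, the difference ran from -0.23 (CDH1) to 0.42 (KRT8). Over the mesenchymal markers it ran from -0.04 to 0.15. Among the markers of other cell types, CD14 was the only one of 4 measured leukocyte markers to reach the floor, and none of 4 endothelial or 2 erythroid markers did. Their SP minus NSP differences ran from -0.23 to 0.09 for leukocyte, from 0.08 to 0.18 for endothelial and from -0.09 to 0.26 for erythroid markers, and their part in the results was not tested.

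The repeat measurements within the arrays were genes with exactly 2 probe sets. In the 57 such genes with both probe sets above the floor, the pair of SP minus NSP differences lay a median of 0.20 apart, and 90% of the pairs lay within 0.56 (log2). This spread is between probe sets of the same RNA and not between samples.

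Of the 95 genes, 35 (36.8%) were above the floor, against 53.0% of all genes. The members just inside were MGAT5B, CHST13 and CHST7, with higher values of 7.45, 7.55 and 7.57. Those just outside were GALNT18, EXTL3 and FUT4, with 7.44, 7.43 and 7.41. Of the 35, 17 had the higher value in SP and 18 the lower (21 and 14 after a lowess trend on signal was removed, where 49.1% of all genes above the floor were lower), with a median difference of -0.005, an SD across genes of 0.30, against 0.28 for all genes above the floor, and differences from -0.59 to 1.10. A total of 23 of the 35 (65.7%) lay within 0.2 of 0, against 60.0% of all 7549 genes. The members above the floor thus differed about as little as genes in general, and a few of them lay farther out.

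At a threshold of 1.5-fold, 1 of the 35 (2.86%) was higher in SP, B4GALT5, against 3.1% of all 7549 genes. Likewise 1 (2.86%) was lower, B4GALT4, against 1.43% of all genes. At 1.3-fold, 4 (11.4%) were higher, B4GALT5, ST3GAL1, ST6GALNAC4 and ST3GAL5, against 6.74% of all genes. A further 3 (8.57%) were lower by that margin, B4GALT4, FUT1 and ST3GAL6, against 6.9% of all genes. ST3GAL6 only just passed, and at -0.37 after lowess and -0.36 after quantile normalisation it lay inside the threshold. At 2-fold B4GALT5 alone was higher, against 0.609% of all genes, and no member was lower, against 0.119%. With no floor, 2 of the 95 were at least 1.5-fold higher, HS3ST1 being the other, against 2.24% of all 14232 genes, and 1 was lower, against 1.23%. Counts this small, next to such shares, do not set the members apart from genes in general. Fewer cells expressing a gene and less RNA per cell cannot be told apart in sorted pools such as these.

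**Figure D1:**
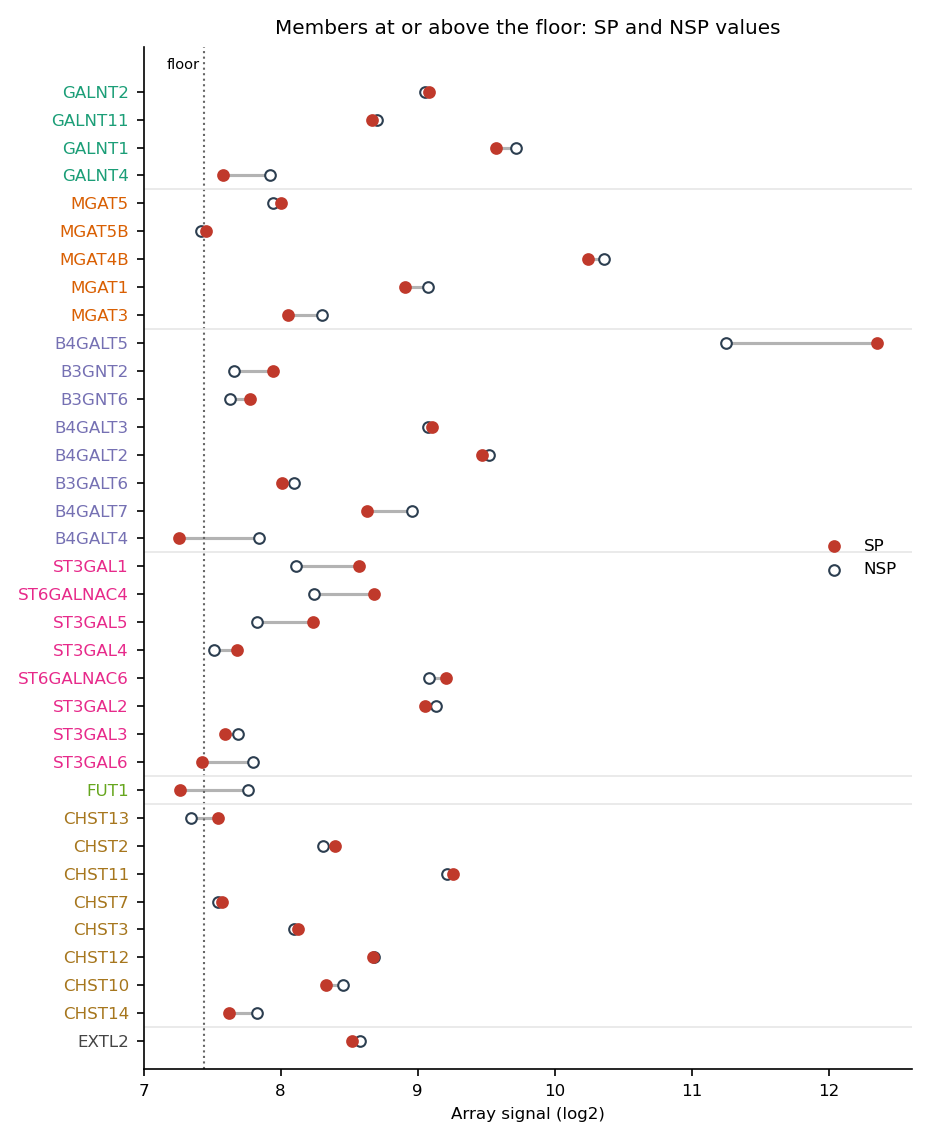
Array signal (log2, horizontal axis) of the 35 genes above the floor, a row for each gene, with the SP value as a filled red point and the NSP value as an open point, grouped by the colour of the gene name. B4GALT5 stands at 12.35 in SP and 11.25 in NSP, while 23 of the 35 pairs lie within 0.2 of each other. The dotted line is the floor of 7.44.

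The upstream sequences of the members past 1.5-fold, B4GALT5 and B4GALT4, and of UGCG, whose enzyme makes the substrate of B4GALT5, are shown because the results below turn on these 3 genes. Each is the 250 bases before the annotated transcript start, 5′ to 3′ on the gene's strand, from RefSeq on GRCh38.p14. Capitals mark matches, on either strand, to a set of 8 motifs: the GC box GGGCGG, the E-box CACGTG, the cyclic AMP response element TGACGTCA, the AP-1 site TGANTCA, the letters CCAAT and TATAAA, the kappa-B site and the CArG box. No overlap between matches of different motifs occurs in these windows. B4GALT5 lies at chr20:49713879-49714128 on the minus strand, B4GALT4 at chr3:119240879-119241128 on the minus strand and UGCG at chr9:111896564-111896813 on the plus strand.
B4GALT5: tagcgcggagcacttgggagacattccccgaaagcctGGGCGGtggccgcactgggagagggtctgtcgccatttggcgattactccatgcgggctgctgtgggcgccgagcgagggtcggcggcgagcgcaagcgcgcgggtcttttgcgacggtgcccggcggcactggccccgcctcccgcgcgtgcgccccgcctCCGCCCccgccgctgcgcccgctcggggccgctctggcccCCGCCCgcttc
B4GALT4: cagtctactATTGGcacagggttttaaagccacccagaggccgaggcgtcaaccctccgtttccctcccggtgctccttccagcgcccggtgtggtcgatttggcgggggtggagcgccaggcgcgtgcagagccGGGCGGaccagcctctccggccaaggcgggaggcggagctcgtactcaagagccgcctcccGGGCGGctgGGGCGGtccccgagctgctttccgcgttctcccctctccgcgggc
UGCG: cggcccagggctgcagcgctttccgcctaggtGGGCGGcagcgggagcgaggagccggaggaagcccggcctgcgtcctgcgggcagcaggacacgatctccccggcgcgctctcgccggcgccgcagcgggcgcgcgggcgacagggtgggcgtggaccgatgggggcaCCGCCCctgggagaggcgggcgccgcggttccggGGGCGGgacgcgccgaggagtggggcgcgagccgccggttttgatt

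All of the capitals in B4GALT5 and UGCG are GC boxes, 3 in each window. B4GALT4 also holds 3 GC boxes, and its remaining match is a CCAAT box, read on the other strand as ATTGG. The windows are rich in G and C, at 75.6% for B4GALT5, 70.0% for B4GALT4 and 78.4% for UGCG, against a median of 58% over 35116 promoter windows. The GC box occurs in 61.5% of the 117 windows of members, whose median G and C content is 67.2%, and in 42.6% of all windows. None of the other 6 motifs matched in the 3 windows shown. The E-box was in 6.84% of member windows and 6.34% of all windows, and the cyclic AMP element in 2.56% of member windows and 1.65% of all. The AP-1 site was in 5.13% of member windows and 6.57% of all windows, and the CCAAT box in 25.6% of member windows and 32.0% of all. The TATA letters were in 1.71% of member windows and 10.7% of all windows. The kappa-B site was in 17.1% of member windows and 9.96% of all windows, and the CArG box in 0.855% of member windows and 1.16% of all. A promoter window was given for 75 of the 95 members. B4GALT5 and B4GALT4 carry the same number of GC boxes in these windows, and any link between motifs and the SP minus NSP differences was not tested.

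Among chain-extending enzymes the 2 members past 1.5-fold pointed in opposite directions. B4GALT5, a galactosyltransferase that turns glucosylceramide into lactosylceramide, had a signal of 12.35 in SP and 11.25 in NSP. It was 2.15-fold higher in SP, a difference of 1.10 (log2). This exceeds the 0.56 within which 90% of same-gene probe set pairs lay, which is a spread between probe sets and not between samples. Only 31 genes above the floor (0.411%), itself included, had a difference that high. Among the 113 other genes whose mean signal was at least that of B4GALT5, 1 had as large a difference, and their highest was 1.23. So the B4GALT5 difference lay far out also among bright probe sets.

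B4GALT4 encodes a related galactosyltransferase that extends N-acetylglucosamine, including the sulfated form found in keratan sulfate. Its signal was 7.25 in SP and 7.84 in NSP, 1.5-fold lower in SP, and the SP value lay under the floor. A total of 107 genes (1.42%) had a difference as low as its -0.59. B4GALT7, the galactosyltransferase of the proteoglycan linker, had 8.63 in SP and 8.96 in NSP, a difference of -0.33. The remaining members of the B4GALT family above the floor were nearly level. B4GALT2, which adds galactose to glycoprotein chains, had 9.47 in SP and 9.52 in NSP, and B4GALT3, with a like role, had 9.11 in SP and 9.08 in NSP. B4GALT1, the main galactosyltransferase of glycoproteins in many tissues, was measured under the floor at 5.61 in SP and 5.10 in NSP, a difference of 0.51. B4GALT6, the other lactosylceramide synthase, was also under the floor, at 6.69 in SP and 6.77 in NSP, and did not share the difference of B4GALT5. Within the 7 measured B4GALT genes the difference thus spanned -0.59 to 1.10, with a median of -0.05.

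The B3GNT enzymes, which add N-acetylglucosamine to growing chains, differed little, with 7 of 8 higher in SP (6 after quantile normalisation or lowess) and a median of 0.12. All but 2 of them lay under the floor, where 59.6% of all genes were higher. B3GNT2, the main enzyme of poly-N-acetyllactosamine synthesis, had 7.94 in SP and 7.66 in NSP, a difference of 0.29. B3GNT6, which makes the core 3 O-glycan, had 7.78 in SP and 7.63 in NSP. These 2 were the only B3GNT genes above the floor. The 5 B3GALT enzymes and B3GALT5-AS1 ran from -0.08 to 0.26, and B3GALT6, the second galactosyltransferase of the proteoglycan linker, was the only one above the floor, at 8.01 in SP and 8.10 in NSP. A4GALT, which makes the globoside Gb3 from lactosylceramide, had 7.34 in SP and 6.93 in NSP, a difference of 0.41 between values under the floor.

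**Figure D2:**
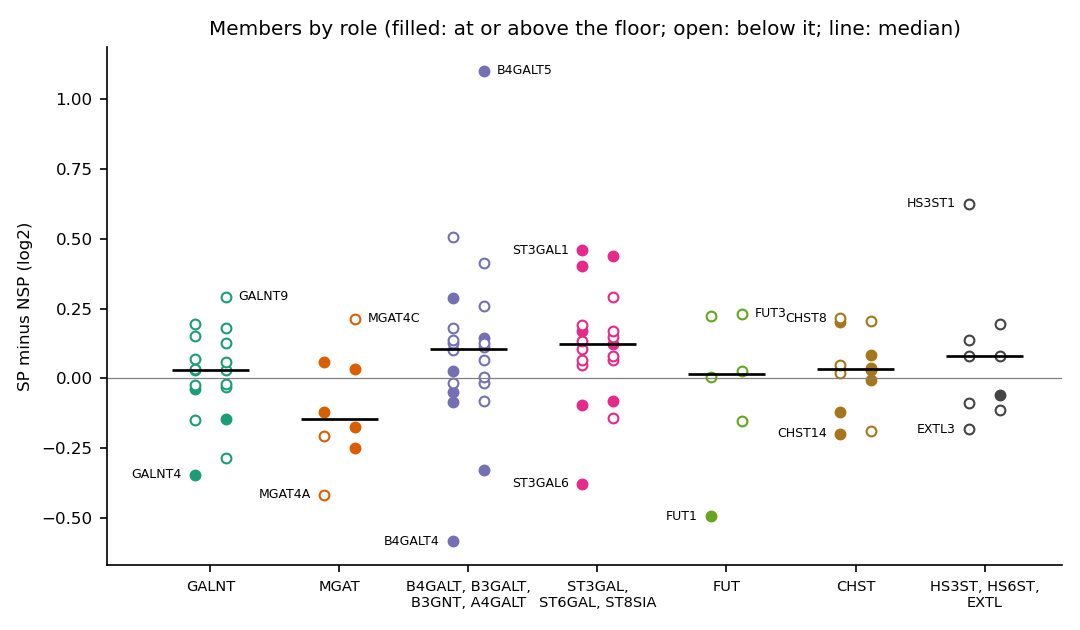
Difference SP minus NSP (log2, vertical axis) of all 95 genes in 7 role groups by symbol. Filled points are genes above the floor, open points genes below it, the bar is the group's median, and the highest and lowest gene of each group is named. Chain-extending enzymes span -0.59 to 1.10, and the MGAT group alone has a median below 0 (-0.15), where after lowess the FUT median is -0.006 as well.

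Sialyltransferases, 8 of the 35 members above the floor, held 4 of the 7 members past 1.3-fold, 3 of them higher in SP. For comparison, 6.74% of the 7549 genes passed this mark upward and 6.9% downward. The role was read off members already picked by their difference, and whether it stands apart from the other roles was not tested. ST3GAL1, which caps the core 1 O-glycan with sialic acid, had 8.57 in SP and 8.12 in NSP, 1.37-fold higher in SP. ST6GALNAC4, which adds a further sialic acid to the sialylated core 1, had 8.68 in SP and 8.24 in NSP, 1.35-fold higher. ST3GAL5, the GM3 ganglioside synthase, had 8.23 in SP and 7.83 in NSP, 1.32-fold higher. Each of these differences (0.40 to 0.46) was within the 0.56 that holds 90% of same-gene probe set pairs, and between 5.01% and 6.16% of the 7549 genes were as high or higher. ST3GAL6, which acts on lactosamine chains, went the other way, with 7.42 in SP and 7.80 in NSP, 1.3-fold lower in SP. After lowess or quantile normalisation ST3GAL6 lay inside 1.3-fold. All 6 ST3GAL genes were above the floor, 3 higher and 3 lower in SP. The remaining 3 were close to level: ST3GAL2, a sialyltransferase of gangliosides and core 1, had 9.05 in SP and 9.13 in NSP, ST3GAL3 had 7.59 in SP and 7.69 in NSP, and ST3GAL4 had 7.68 in SP and 7.51 in NSP, both of these acting on lactosamine chains.

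Over all 19 sialyltransferases 15 were higher in SP, with a median of 0.12 (0.08 after lowess, with 15 higher again). Of all 14232 genes 49.2% were higher, and 59.6% of those under the floor, where 11 of the 19 lie. Only 8 reached the floor, and among those 5 were higher, with a median of 0.15, where 40.1% of all genes above the floor were higher. All 5 ST8SIA genes, which build chains of sialic acid, were under the floor and had differences of 0.07 to 0.17. All genes under the floor had a median of 0.05 and an upper quartile of 0.16. ST8SIA2 was 1 of 2 members with 2 probe sets, and these gave 0.23 and 0.11. ST6GALNAC6, a sialyltransferase of gangliosides, had 9.21 in SP and 9.09 in NSP. ST6GAL1, which puts the terminal sialic acid on N-glycans, was under the floor at 6.07 in SP and 6.21 in NSP.

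GALNT genes, which start mucin-type O-glycans, differed little. Of the 18, only 4 were above the floor. GALNT1 had 9.57 in SP and 9.72 in NSP and GALNT2 had 9.08 in SP and 9.05 in NSP, and these are the broadly expressed starters. GALNT11, known for acting on NOTCH1, had 8.67 in SP and 8.71 in NSP. GALNT4, which favours peptides that already carry a sugar, had 7.58 in SP and 7.92 in NSP, a difference of -0.35, and it shares its locus with POC1B. The group's highest difference, 0.29, was that of GALNT9 under the floor, with 7.12 in SP and 6.83 in NSP. The 2 probe sets of GALNT3, far under the floor, both gave -0.02. None of the 18 reached 1.3-fold in either direction.

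MGAT genes had the lowest median of the role groups with more than 1 member above the floor, -0.12 over 5 genes, and -0.15 over all 8 (-0.07 after lowess). Of the 8, 5 were lower in SP, and of the 5 above the floor 3 (60%) were, against 59.6% of all genes above it. MGAT1, which opens the way to hybrid and complex N-glycans, had 8.91 in SP and 9.08 in NSP. MGAT3, which adds the bisecting N-acetylglucosamine, had 8.05 in SP and 8.30 in NSP, a difference of -0.25. MGAT4B, which makes the third branch, had 10.24 in SP and 10.36 in NSP. MGAT5, which makes the branch that galectins bind best, had 8.01 in SP and 7.95 in NSP, so the branching enzymes did not all lie to 1 side. Under the floor, MGAT4A, the relative of MGAT4B, had 6.85 in SP and 7.27 in NSP, a difference of -0.42, and MGAT4C had the group's highest, 0.21, between the dim values of 3.76 in SP and 3.54 in NSP.

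Of 6 FUT genes only FUT1 was above the floor. FUT1, which makes the H antigen, the precursor of the A and B blood groups, had 7.27 in SP, under the floor, and 7.76 in NSP, 1.41-fold lower in SP. A difference as low as its -0.50 was seen in 2.89% of the 7549 genes. FUT8, the core fucosyltransferase of N-glycans, had 7.12 in SP and 7.27 in NSP. The Lewis antigen enzymes FUT3 and FUT6 had differences of 0.23 and 0.22, and FUT4 and FUT9, which make Lewis x, had 0.01 and 0.02, all under the floor. FUT1 had the lowest difference of the 6, within the 0.56 that holds 90% of same-gene probe set pairs.

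The CHST sulfotransferases were the most level group: all 13 lay between -0.20 and 0.21, and the 8 above the floor had a median of 0.03. CHST11, which sulfates chondroitin at the 4-position, had 9.26 in SP and 9.22 in NSP, and CHST12, with the same activity, had 8.68 in both. CHST3 and CHST7, chondroitin 6-sulfotransferases, both had a difference of 0.03. CHST14, needed for dermatan sulfate, was the lowest, with 7.63 in SP and 7.83 in NSP. CHST13 was the highest of those above the floor, with 7.55 in SP and 7.34 in NSP. CHST8, which sulfates hormone glycans, gave 0.21 under the floor.

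Heparan sulfate members were nearly all dim, with EXTL2 the only 1 of 9 above the floor, at 8.52 in SP and 8.58 in NSP. HS3ST1, which makes the antithrombin-binding form of heparan sulfate, had 6.57 in SP and 5.94 in NSP, a difference of 0.63, the second highest of all 95 genes, with both values under the floor. EXTL3, which starts the heparan sulfate chain, had 7.25 in SP and 7.43 in NSP, the lowest difference of the group at -0.18.

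**Figure D3:**
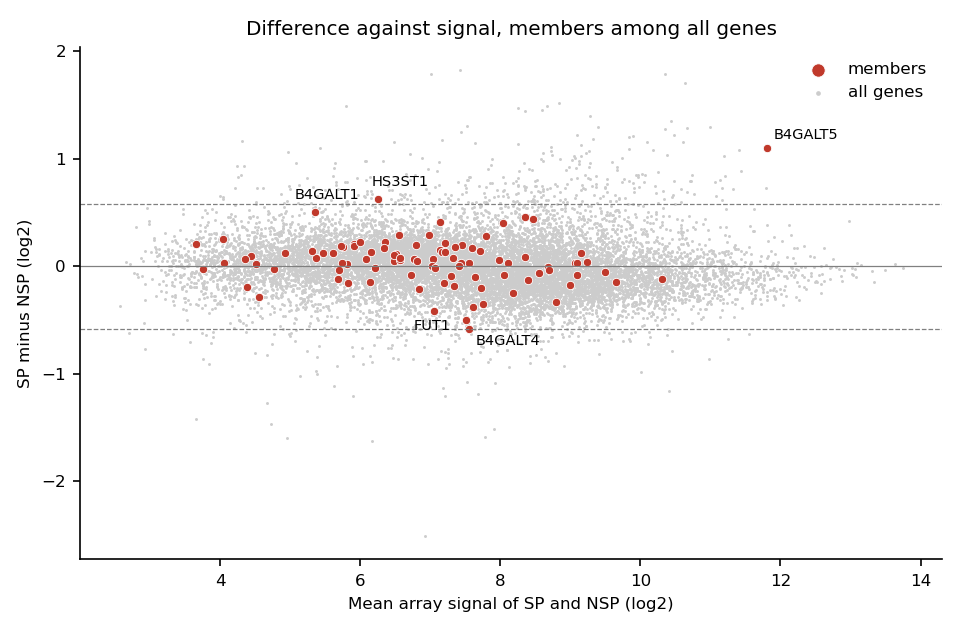
Difference SP minus NSP (vertical axis, log2) against the mean signal of the 2 arrays (horizontal axis, log2) for all 14232 genes (grey) and the 95 members (red). Dashed lines mark 1.5-fold either way. B4GALT5 lies beyond the upper line, HS3ST1 just beyond it among dim genes, and B4GALT4 at the lower one.

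The difference moved with signal in the members and in all genes. In 5 bins of mean signal holding equal numbers of genes, from dim to bright, the members had medians of 0.08, 0.08, 0.03, -0.005 and -0.01, and all genes 0.05, 0.06, 0.01, -0.06 and -0.08. The 60 members under the floor were higher in SP in 44 cases (38 after lowess) with a median of 0.08, where 59.6% of all genes under the floor were higher. The part of signal level in these balances was not tested.

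The steps of the known synthesis routes were then set side by side. The routes were laid out after the values had been seen, and each holds the main enzymes of its steps rather than every relative. On the glycolipid route the 2 genes past 1.5-fold stand at the start. UGCG, which makes glucosylceramide and is not a member, had 9.75 in SP and 8.98 in NSP, 1.70-fold higher, and 1.47% of the 7549 genes were as high or higher. B4GALT5, the next step, was 2.15-fold higher, while B4GALT6, of the same step, was at -0.08 under the floor. From lactosylceramide, ST3GAL5 leads to GM3 (0.40) and A4GALT to Gb3 (0.41, under the floor). The remaining enzymes of the route ran from -0.18 to 0.13. B3GALNT1, which makes Gb4, had 7.43 in SP and 7.61 in NSP, B4GALNT1, which makes GM2 and GD2, had a difference of -0.06, and ST8SIA1, the GD3 synthase, had a difference of 0.07 under the floor. B3GNT5, which begins the lacto series, had 0.13, and B3GALT4, the GM1 synthase, -0.02, both under the floor.

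On the mucin route no gene reached 1.5-fold, and the starting enzymes GALNT1, GALNT2, GALNT4 and GALNT11 were at -0.15, 0.03, -0.35 and -0.04. C1GALT1, the core 1 synthase, had 8.25 in SP and 7.87 in NSP, a difference of 0.38, while its chaperone C1GALT1C1 had 7.56 in SP and 7.51 in NSP. Of the enzymes that sialylate core 1, the differences were 0.46 for ST3GAL1, 0.44 for ST6GALNAC4 and 0.29 for ST6GALNAC3, the last under the floor. The core 2 branching enzyme GCNT1 had 0.15, also under the floor. Its relatives GCNT3 and GCNT4, likewise under the floor, were lower in SP, at -0.08 and -0.10. ST3GAL2, which also sialylates core 1, was at -0.08.

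The proteoglycan linker had 5 enzymes above the floor, and all 5 were lower in SP, as were 59.6% of all 7549 genes. Under the floor, B3GAT1, a relative of B3GAT3, and PXYLP1, the xylose phosphatase, were at 0.07 and -0.09. XYLT2, which adds xylose to the protein, had 8.28 in SP and 8.43 in NSP. B4GALT7 was at -0.33 and B3GALT6 at -0.08, as above. FAM20B, the xylose kinase, had 9.13 in SP and 9.41 in NSP, and B3GAT3, which adds the closing glucuronic acid, had 8.66 in SP and 9.06 in NSP, 1.32-fold lower. None reached 1.5-fold. All 5 stayed lower under both rescalings, and their median of -0.28 became -0.24 after quantile normalisation and -0.20 after lowess.

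**Figure D4:**
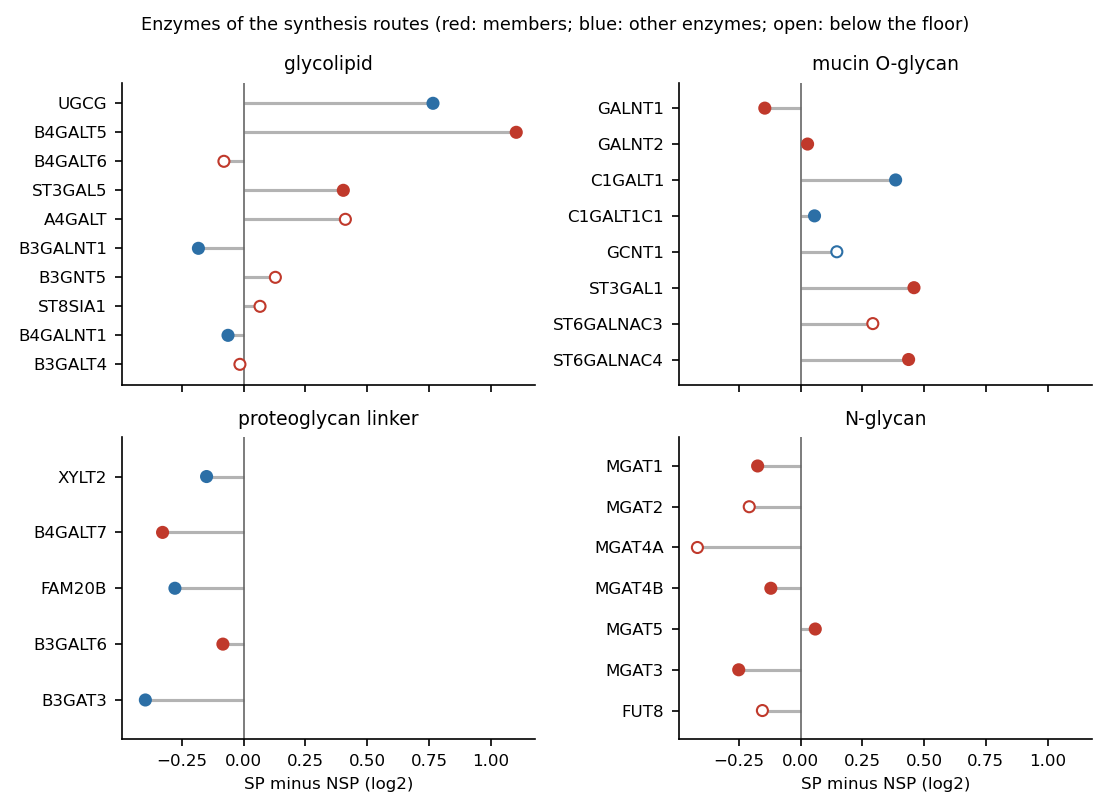
Difference SP minus NSP (log2, horizontal axis) of the enzymes of 4 routes, 1 panel each. Red points are members, blue points other enzymes, and open points are under the floor. UGCG (0.77) and B4GALT5 (1.10) lead the glycolipid panel, and the 5 linker enzymes drawn lie below 0.

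Genes of 14 related lists, chosen by function and outside the member families, gave a wider background. Of 203 listed genes 160 were measured and 114 were above the floor. The members above the floor were lower in SP in 18 of 35 cases with a median of -0.005, and the list genes in 84 of 114 (73.7%) with a median of -0.11. After the lowess trend was removed 14 of these 35 members (40%) and 65 of the 114 list genes (57.0%) were lower, with medians of 0.03 and -0.04. The median SP signal was 8.33 for these members, 8.89 for the list genes and 8.61 for all genes above the floor, and the part of signal level in the difference was not tested. Past 1.5-fold, 1 list gene was higher (UGCG) and 2 were lower (SLC35B3 and CD24).

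Enzymes that make sugar donors were split. UAP1, which makes UDP-N-acetylglucosamine, had 9.41 in SP and 8.95 in NSP, and GFPT1, the first enzyme of the hexosamine pathway, had 10.59 in SP and 10.25 in NSP. GFUS, which completes GDP-fucose, had 9.23 in SP and 9.79 in NSP, 1.48-fold lower. The list had 6 of 15 higher (9 after quantile normalisation or lowess) and a median of -0.01. Donor transporters were lower in 7 of 8 cases with a median of -0.21, where 59.6% of all genes above the floor were lower. The sulfate donor transporter SLC35B3 had 7.08 in SP, under the floor, and 7.71 in NSP, 1.55-fold lower. SLC35D2 had a difference of -0.25 and the galactose donor transporter SLC35A2 one of -0.24.

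Enzymes that build and transfer the N-glycan precursor were lower in 13 of 14 cases (10 after lowess), with a median of -0.13 (-0.05 after lowess), where 59.6% of all genes above the floor were lower (49.1% after lowess). ALG5, which makes the glucose donor, was at -0.33, ALG14 at -0.29 and the oligosaccharyltransferase subunit gene DDOST at -0.28. Trimming enzymes were lower in 9 of 10 cases (7 after lowess) with a median of -0.16 (-0.08 after lowess), where MOGS, the first glucosidase, had -0.40 and the mannosidase genes MAN1A2 and MAN2A1 had -0.26 and 0.38. Enzymes of O-fucose, O-mannose and O-GlcNAc were lower in 8 of 10 cases (7 after either rescaling) with a median of -0.20. POFUT1, which adds fucose to Notch receptors, had 9.19 in SP and 9.69 in NSP, 1.41-fold lower, while OGT had -0.30 and POFUT2 -0.29. Sialidases and lysosomal hydrolases were lower in 7 of 7 cases (6 after lowess) with a median of -0.18 (-0.10 after lowess), among them the lysosomal mannosidase gene MAN2B1 (-0.51) and the sialidase genes NEU3 (-0.45) and NEU1 (-0.28). No gene of these 4 lists reached 1.5-fold.

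Heparan sulfate chain enzymes had 3 of 6 higher and a median of -0.01 (0.06 after lowess), with EXT1 at 0.20, EXT2 at -0.17 and GLCE at 0.15. Chondroitin and dermatan sulfate enzymes had 1 of 4 higher and a median of -0.16, with the chondroitin synthase gene CHSY1 at 0.34, CHPF at -0.25 and CSGALNACT2 at -0.18. Linker enzymes outside the member families, already described, had 0 of 3 higher and a median of -0.28. Glycolipid enzymes outside the member families had 1 of 4 higher, UGCG (2 after lowess), and a median of -0.12, with UGT8 at -0.26 and B3GALNT1 at -0.18. The list of mucin core enzymes had 2 of 3 higher (3 after lowess) and a median of 0.06. C1GALT1 was at 0.38 and C1GALT1C1 at 0.06. B3GLCT, at -0.04, was placed in this list but extends O-fucose and makes no mucin core. Proteoglycan core proteins had 5 of 8 higher (6 after lowess) and a median of 0.04, led by LUM (-0.40), TGFBR3 (0.34) and SDC2 (0.15). Among mucins and glycan-binding proteins 1 of 5 was higher (2 after lowess), with a median of -0.11. There CD24, a small heavily glycosylated surface protein, had 7.98 in SP and 8.88 in NSP, 1.87-fold lower, and the galectin genes LGALS1 and LGALS3 had -0.40 and 0.27. Golgi structure genes had 6 of 17 higher (11 after lowess) and a median of -0.05, with GOLPH3, which retains glycosyltransferases in the Golgi, at 0.32, COG4 at -0.30 and COG3 at 0.29.

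**Figure D5:**
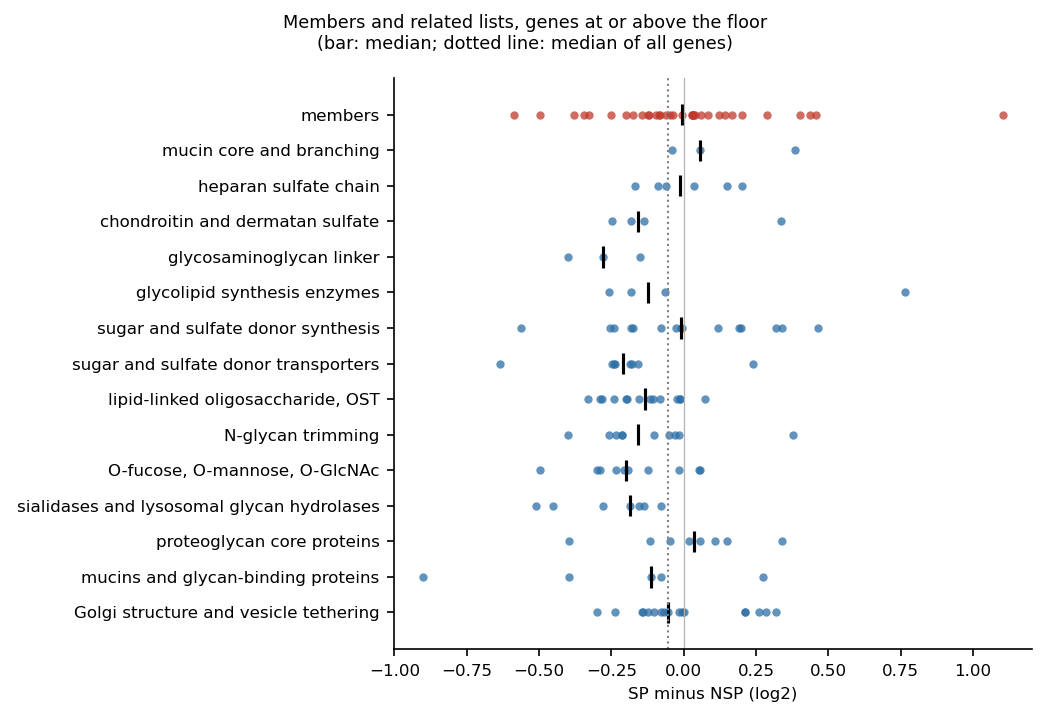
Difference SP minus NSP (log2, horizontal axis) of the 35 members (red) and the genes of the 14 related lists (blue) that were above the floor, a row for each list. The bar is the median of the row and the dotted line the median of all 7549 genes (-0.05). The members' median is -0.005, and the donor transporter and linker rows have medians of -0.21 and -0.28.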

How the data were processed

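RNA of J82 side population (SP) and non-side population (NSP) cells was labelled and hybridised to 1 exon array each. The table holds log2 values deposited by the authors for 22011 probe sets. It was made with RMA and Partek, per the submitters' processing notes, and versions, the probe set definition, filters and a genome build for the array are not stated in the sources used here. RMA in general equalises arrays and compresses differences of dim probe sets. Without probe intensities no detection call could be made, and the number of arrays limits the precision.

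Genes were named from the 14432 probe sets with 1 symbol in the platform annotation (2408 had several and 5171 none). Symbols were updated through Entrez identifiers in RefSeq (GRCh38.p14), which changed no member's symbol and matched all 95. Probe sets of a gene were averaged, and the difference is SP minus NSP, with fold as 2 to its size. With 1 array in each group no test was run. Genes were counted past 1.5-fold where SP, NSP or both reached the median over both arrays (the floor). The members, lists and named genes were chosen with earlier results of these data known. Named were members past 1.3-fold above the floor, the extremes of each role group, the 5 members with the highest signals, and 3 genes of each list. Other members were named for their role, and the routes were laid out after the values were seen. Values of different probe sets do not rank transcript levels. The difference and the 1.5-fold cut were checked on simulated data with planted differences well past 1.5-fold, in genes with a single probe set. The floor and the member rule were not part of this check. It cannot show how reliable calls near the threshold are. Alternatives were other floors and folds, centring, a lowess fit (span 0.3), quantile normalisation, the brightest probe set, platform symbols and, added after seeing the data, probe sets counted singly. Python 3.11.15, numpy 2.4.6, pandas 2.3.3, statsmodels 0.14.6 and matplotlib 3.10.9 were used.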

Additional observations from a re-analysis of the deposited data

How the results depend on the processing

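The count of members at least 1.5-fold higher in SP stayed at 1 under 8 alternatives and was 2 with no floor or with a floor at the lower quartile, where HS3ST1 joined B4GALT5, and 4 at 1.3-fold. The count of members at least 1.5-fold lower was 1, B4GALT4. It became 0 with both values required above the floor, since its SP value lay under it, and at 2-fold. It also became 0 after the lowess trend on signal was removed and after quantile normalisation, where B4GALT4 lay just inside 1.5-fold. It was 3 at 1.3-fold. The median difference of members, -0.005, was 0.0114 with both values required above the floor, 0.0429 with a floor at the lower quartile, 0.0488 with no floor, 0.0344 after lowess and 0.0406 after quantile normalisation. Centring, platform symbols and the brightest probe set could not change the values of the 7 members past 1.3-fold. The median of all genes was 0, no member was renamed and each of the 7 had 1 probe set. Counts that stayed the same under these settings are therefore no check. Under lowess and quantile normalisation, which could change the values, the 7 kept their directions, though ST3GAL6 no longer passed 1.3-fold. Across the deposited values and these rescalings, B4GALT5 ran from 1.10 to 1.18 and B4GALT4 from -0.59 to -0.57. The median of all genes above the floor was -0.05, and 0.004 after lowess. Of the members above the floor, B4GALT2, CHST12, EXTL2 and GALNT11, all within 0.1 of 0, had the lower value in SP as deposited and the higher after lowess, CHST12 and GALNT11 also after quantile normalisation. No paired analysis was possible because each population has 1 array. With no replicate, no error between samples can be given, and differences of dim probe sets are compressed by RMA.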

Other observations

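The nearest genes above the floor around the members past 1.3-fold had SP minus NSP differences from -0.38 to 0.39. Other genes can lie between them and the member, and distances were not taken into account. For each, the 2 nearest measured protein-coding genes above the floor on either side were taken. Around B4GALT5 the 4 neighbours ran from -0.25 (DDX27) to 0.03 (SLC9A8), and around B4GALT4 from -0.20 (POGLUT1) to 0.23 (TMEM39A). Around ST3GAL1 they ran from -0.18 (CHRAC1) to 0.39 (NDRG1), and around ST6GALNAC4 from -0.27 to 0.23. For ST3GAL5 the range was -0.35 to 0.06, and for ST3GAL6 -0.13 to 0.09. The 4 neighbours of FUT1 were all lower in SP, from -0.38 (HSD17B14) to -0.02 (MAMSTR), where 59.6% of all genes above the floor were lower.

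A further 13 probe sets listed a member-type symbol together with another gene and named no gene here. Their SP minus NSP differences ran from -0.08 to 0.20, with a median of 0.06, and none reached 1.5-fold.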
